A study of Rattus norvegicus with 12 samples.

Results

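The endocannabinoid genes described here are the cannabinoid receptor *Cnr1* and 7 enzymes that make or break down its lipid ligands, *Dagla*, *Daglb*, *Napepld*, *Mgll*, *Abhd6*, *Abhd12* and *Faah*. They were taken by symbol from the table of raw counts, which holds all 8 of them among 17337 genes. Each library came from the whole striatum of 1 male Sprague–Dawley rat labelled as wild type. By the labels, every rat had self-administered methamphetamine (MA) for 16 days. Of the 12 rats, 4 were killed 12 h after the last session (MA12), 4 were killed 24 h after it (MA24), and 4 carry the label non-addicted. The sources used here give neither an abstinence time for the non-addicted rats nor the criterion behind that label. No library used here is labelled as the study's group of saline self-administration or of MA self-administration without abstinence. Whether the non-addicted rats are either of these groups is not stated in the sources used here. Going by the labels alone, every contrast is between rats that had taken MA. In this short-access model of daily sessions, the methods kept only MA12 and MA24 rats whose lever pressing was stable.

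The CB1 receptor, encoded by *Cnr1*, couples to Gi/o proteins and sits mostly on presynaptic terminals, where it lowers transmitter release. Its ligand 2-arachidonoylglycerol (2-AG) is made on demand in postsynaptic neurons by diacylglycerol lipases, from diacylglycerol that phospholipase C beta releases when Gq-coupled receptors such as mGluR5 are active. Monoacylglycerol lipase and the ABHD hydrolases degrade 2-AG, whereas the other main ligand, anandamide, is made in part by NAPE-PLD and hydrolysed by FAAH. In the striatum, projection neurons contain much of the CB1, and this signalling is known for its part in synaptic plasticity and drug reward.

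Between 17908962 and 23850284 reads per library were counted on genes. Within groups, all 18 pairs of libraries were further apart than counting alone gives (smallest chi-square per degree of freedom, 9.72), and each rat counted as 1 replicate. All 9 markers of striatal projection neurons were present, with summed levels of 13585 to 17518 CPM (the gene's count relative to the scaled size of its library) in MA12, 16240 to 17974 in MA24 and 13501 to 16440 in the non-addicted rats. The 4 cortical neuron markers used summed to between 2.82 and 10.2 CPM in every library, and *Neurod2* and *Neurod6* had 0 counts in some. Rat numbers with a final N belong to 2 of the 4 MA12 rats (4N and 7N), to every MA24 rat and to no non-addicted rat. The sources do not say what N stands for, so it cannot be told apart from the group in non-addicted vs. MA24.

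*Cnr1* was the 1 gene of the 8 that passed the test in any comparison, and it was lower in MA24 than in MA12, where 5.16% of all genes tested passed. In MA12, its level was 454 CPM in rat 21, 356 in rat 31, 537 in rat 4N and 527 in rat 7N. In MA24, it was 367 CPM in rat 9N, 349 in rat 14N, 334 in rat 15N and 271 in rat 16N. The groups overlapped only through MA12 rat 31, whose level lay below that of MA24 rat 9N. The non-addicted rats had 325 CPM in rat 9, 356 in rat 11, 299 in rat 12 and 471 in rat 13, so that 3 of them were in the MA24 range and rat 13 was in the MA12 range. These levels rest on 5138 to 11407 reads per library, so that counting error was small beside the spread between rats.

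**Figure D1:**
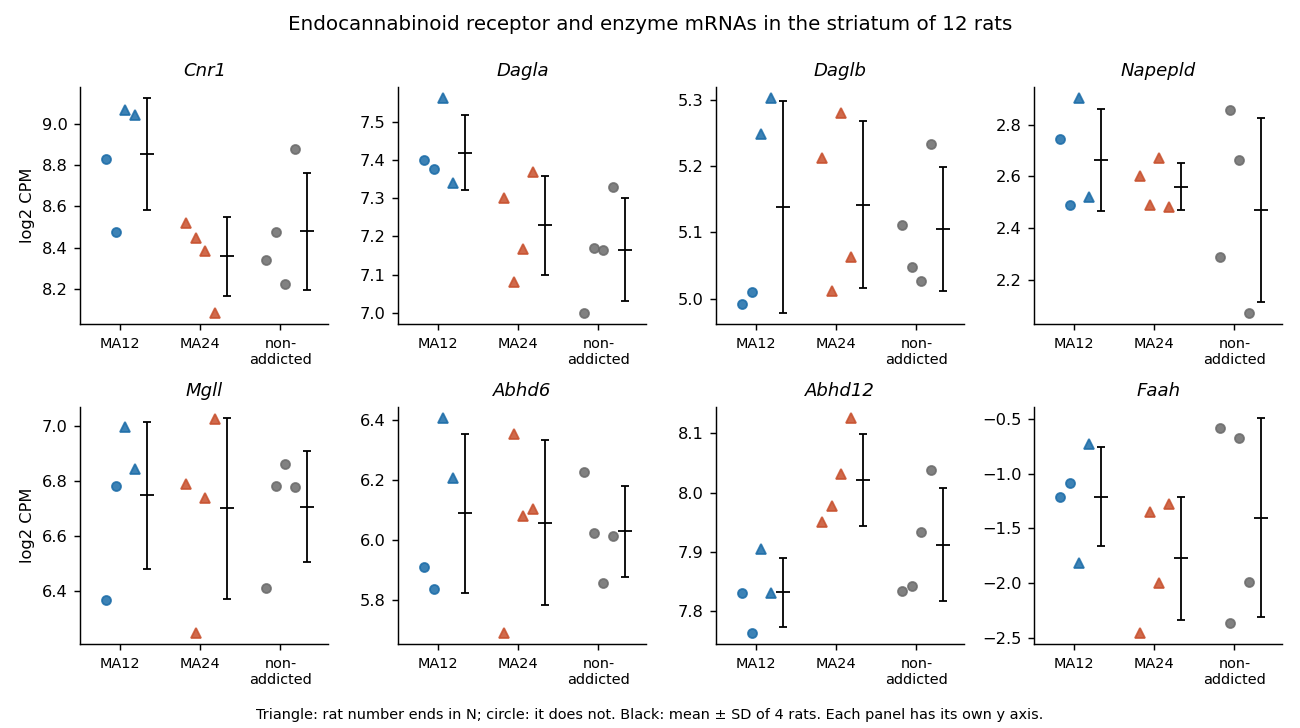
Levels of the 8 genes in the 12 rats as log2 CPM, 1 panel per gene with its own y axis, by group on the x axis. Each point is 1 rat (triangle, number ending in N), and the black bars are mean ± SD of 4 rats. *Cnr1* was lowest in MA24 rat 16N, and for *Abhd12* every MA24 rat was above every MA12 rat.

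On the log2 CPM scale, *Cnr1* averaged 8.85 ± 0.27 (SD, n = 4) in MA12, 8.36 ± 0.19 in MA24 and 8.48 ± 0.28 in the non-addicted rats. In MA24 vs. MA12, it was lower by 0.50 on the log2 scale (SE 0.13, 95% interval -0.77 to -0.24, edgeR quasi-likelihood test, adjusted p = 0.0280). This is 1.42-fold lower and under the 1.5-fold threshold for a DEG. The call was kept by DESeq2 (adjusted p = 0.0064), and it was lost without MA12 rat 4N (adjusted p = 0.0603), MA12 rat 7N (0.0571), MA24 rat 15N (0.0627) or MA24 rat 16N (0.0863). Keeping only rats with N in their number (2 MA12 against 4 MA24) left out MA12 rats 21 and 31, the 2 lowest of their group. The log2FC was then -0.68 (adjusted p = 0.0046). With the kind of number as a covariate, the log2FC was -0.69 (adjusted p = 0.0219). Every MA24 rat has an N, so this fit again sets MA24 against MA12 rats 4N and 7N and is not a separate check. In whole tissue, fewer cells of a type and less RNA per cell cannot be told apart. The rats lived on a light–dark cycle, and the hour of killing is not given. Time since the last session therefore cannot be told apart from time of day in MA24 vs. MA12.

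**Figure D2:**
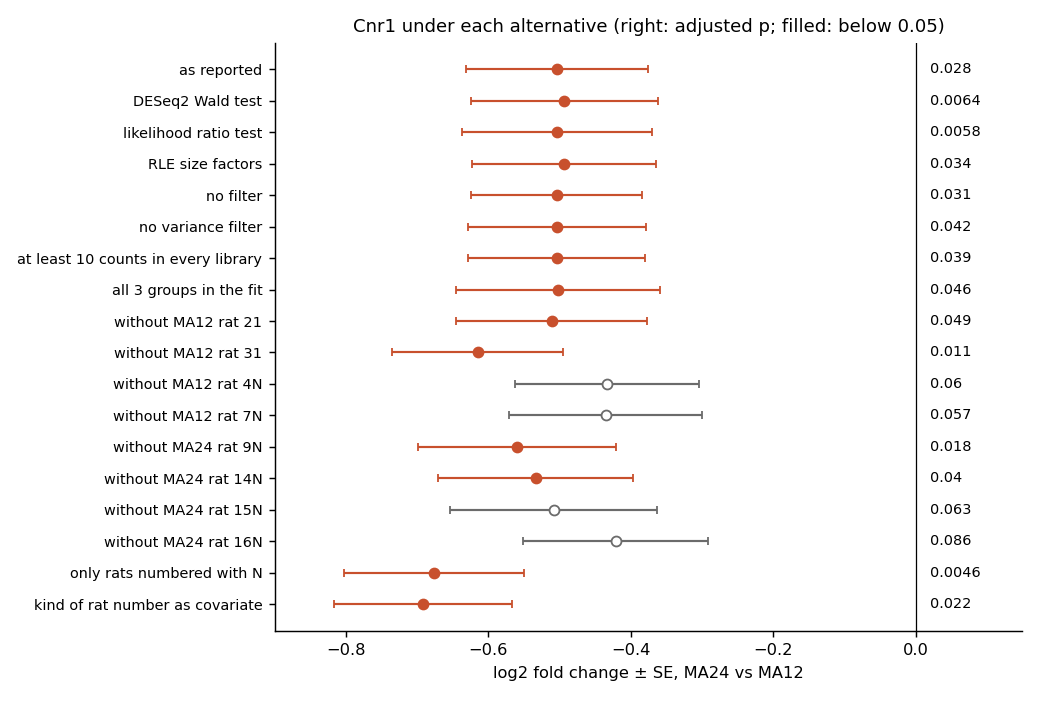
Log2FC of *Cnr1* in MA24 vs. MA12 (x axis, ± SE) in the reported fit and under 17 alternatives (y axis), with the adjusted p at the right. Filled points have an adjusted p below 0.05. All values were below 0, from -0.69 to -0.42, and 13 of the 17 alternatives kept the call. Among these, the fit of N-numbered rats and the covariate fit rest on the same contrast.

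Of 38 markers of 8 cell types, 34 could be tested in MA24 vs. MA12, and 2 of them were called, both lower. This is close to the background, where 5.16% of all genes tested were called. The 2 markers were *Pdyn*, the prodynorphin gene of projection neurons of the direct pathway (log2FC -0.57, adjusted p = 0.0084), and *Nos1*, the nitric oxide synthase of an interneuron class (log2FC -0.76, adjusted p = 0.0434). The summed projection neuron markers were not lower in MA24 (mean 17111 CPM against 15415 in MA12). The summed oligodendrocyte markers ranged from 10821 to 19556 CPM in MA12 and from 16291 to 19093 in MA24. The part of cell composition in the *Cnr1* difference was not tested.

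Both diacylglycerol lipases, the enzymes that make 2-AG, were detected in every rat, and neither passed the test. *Dagla*, which encodes the lipase that is the main source of 2-AG at adult synapses, had 169, 166, 189 and 162 CPM in MA12 rats 21, 31, 4N and 7N. It had 158, 135, 144 and 165 CPM in MA24 rats 9N, 14N, 15N and 16N, and 128, 144, 143 and 161 CPM in non-addicted rats 9, 11, 12 and 13. Every non-addicted rat was thus below every MA12 rat, by a narrow gap, as were the groups of 7.03% of all genes tested in either direction, while MA24 overlapped both other groups. The log2FC of *Dagla* was -0.26 in non-addicted vs. MA12 (SE 0.10, 95% interval -0.47 to -0.05, adjusted p = 0.293) and -0.19 in MA24 vs. MA12 (SE 0.10, -0.39 to 0.02, adjusted p = 0.250). *Daglb*, the second lipase, had 31.7 to 39.4 CPM over the 12 rats. Its log2FC was 0.00 in MA24 vs. MA12, with a 95% interval of -0.23 to 0.24.

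Of the enzymes that degrade 2-AG, *Mgll* and *Abhd6* showed no detectable difference, and *Abhd12* was the 1 gene of the 8 for which MA24 and MA12 did not overlap. *Abhd12* had 227, 217, 240 and 227 CPM in MA12 rats 21, 31, 4N and 7N, and 247, 252, 262 and 279 CPM in MA24 rats 9N, 14N, 15N and 16N. In the non-addicted rats 9, 11, 12 and 13, it had 228, 229, 244 and 263 CPM, which spans the upper part of MA12 and the lower part of MA24. The fitted difference between MA24 and MA12 was 0.19 on the log2 scale (SE 0.09, 95% interval 0.00 to 0.38), and the adjusted p of 0.210 missed the threshold. Among all genes tested, 15.5% did not overlap between MA24 and MA12, so 1 of 8 is close to the background.

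*Mgll*, the monoacylglycerol lipase that removes most 2-AG in brain, varied within groups far more than between them. Its MA12 rats had 82.4 to 127 CPM, its MA24 rats 75.7 to 130, and its non-addicted rats 84.9 to 116. The log2FC was -0.04 in MA24 vs. MA12 (95% interval -0.34 to 0.27), -0.05 in non-addicted vs. MA12 (-0.32 to 0.21) and -0.02 in non-addicted vs. MA24 (-0.30 to 0.27). *Abhd6*, which encodes a postsynaptic hydrolase of 2-AG, had 57.0 to 84.7 CPM in MA12, 51.5 to 81.8 in MA24 and 57.9 to 74.8 in the non-addicted rats. Its 95% intervals in the 3 comparisons lay between -0.34 and 0.26, which is the size of difference that 4 rats per group leave undecided.

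The 2 genes of anandamide metabolism had the lowest counts of the 8. *Napepld*, the phospholipase D that releases N-acylethanolamines, had 79 to 157 counts per library. Its level was 5.52 to 7.39 CPM in MA12, 5.49 to 6.27 in MA24 and 4.11 to 7.15 in the non-addicted rats, where rats 9 and 13 were below all others. The log2FC was -0.11 in MA24 vs. MA12 (95% interval -0.51 to 0.29) and -0.18 in non-addicted vs. MA12 (-0.62 to 0.26).

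*Faah*, the hydrolase that ends anandamide signalling, was close to the limit of detection, and its direction could not be read. It had 8, 9, 4 and 9 counts in MA12 rats 21, 31, 4N and 7N. It had 2, 6, 3 and 6 counts in MA24 rats 9N, 14N, 15N and 16N, and 11, 2, 13 and 3 in non-addicted rats 9, 11, 12 and 13. The groups overlapped throughout, and the log2FC of -0.72 in MA24 vs. MA12 had a 95% interval of -2.20 to 0.77 (adjusted p = 0.566). How reads with several positions were counted is not given in the sources used here, and a level this low is that of the row named *Faah* in an rn6 annotation.

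**Figure D3:**
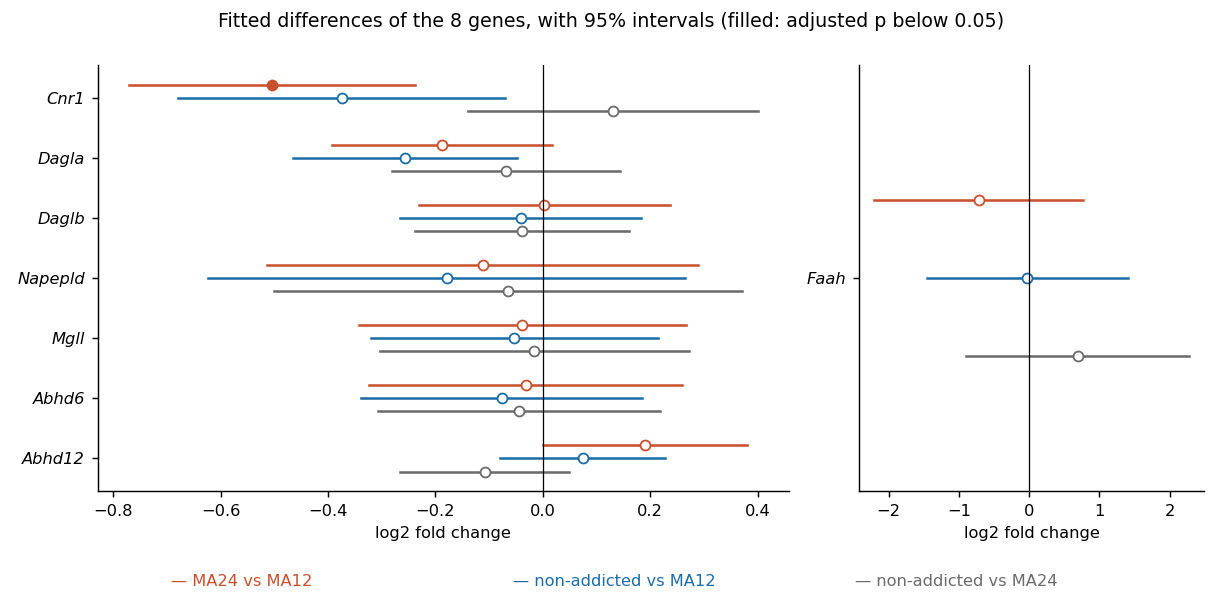
Fitted log2FC of the 8 genes (x axis) with 95% intervals in the 3 comparisons, with *Faah* on a wider axis of its own. The filled point, *Cnr1* in MA24 vs. MA12, is the 1 call. The 3 comparisons share their groups in pairs, so their values are not independent.

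Counted together, 1 of the 8 genes was called in MA24 vs. MA12, beside 3.32% of all genes tested called lower. None of the 8 was called with an FC of at least 1.5, beside 2.45% of all genes tested. The uncalled *Faah*, with few counts, had a fitted FC of 1.64 downward. Of the 8, 6 had a log2FC below 0, beside 5562 of the 10755 genes tested. The median was -0.08, beside -0.02 for all genes. In non-addicted vs. MA12, no gene of the 7 in the fit was called by edgeR's quasi-likelihood test, its likelihood ratio test or DESeq2, where 0.27% of all genes tested were called by the quasi-likelihood test. *Cnr1* and *Dagla* had an unadjusted p under 0.05, beside 12.3% of all genes tested. *Dagla* was the 1 gene of the 7 whose groups were apart. *Abhd12* had been removed from this fit by the filter on low variance. In the fit without that filter, its log2FC was 0.07 (95% interval -0.08 to 0.23).

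*Cnr1* was also lower in the non-addicted rats than in MA12 by its mean, but the test was not passed. The log2FC was -0.37 (SE 0.14, 95% interval -0.68 to -0.07, adjusted p = 0.293). Leaving out non-addicted rat 13 gave -0.51 (adjusted p = 0.0708). With only the rats whose number lacks N (4 non-addicted against MA12 rats 21 and 31), it was -0.15 (adjusted p = 0.762). With all 8 rats and a term for the N, it was -0.16 (adjusted p = 0.761), so the fitted difference was smaller once the kind of rat number was held equal.

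In non-addicted vs. MA24, 0 of the 6 genes in the fit were called by any of the 3 tests, where 0.549% of all genes were called by the quasi-likelihood test. None of the 6 had an unadjusted p under 0.05, beside 17.5% of all genes. For no gene of the 8 were the groups apart, beside 9.92% of all genes. The log2FC of *Cnr1* was 0.13 (95% interval -0.14 to 0.40, adjusted p = 0.611), and without non-addicted rat 13 it was -0.024. Fitting all 3 groups with a term for the N, which MA12 rats alone estimate, gave 0.54 (adjusted p = 0.933). *Daglb* and *Abhd12* were removed by the variance filter, and without it their log2FC was -0.04 (95% interval -0.24 to 0.16) and -0.11 (-0.27 to 0.05). The order of the *Cnr1* group means was therefore MA12, non-addicted, MA24, of which only the outer pair differed by the test.

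The 8 genes were set beside a list of 37 further genes of the pathway, of which 34 are in the table under current or older symbols and *Gpr55*, *Pla2g4e* and *Sgip1* are not. In MA24 vs. MA12, 25 of them were in the fit, and 6 were called, all lower and 3 with an FC of at least 1.5, beside the 3.32% of all genes called lower. The median log2FC over the 25 was 0.01. By role, 4 of the 7 tested genes upstream of 2-AG synthesis and 2 of the 6 tested partners of the receptor were called. None of the 3 carriers, 3 other genes of N-acylethanolamine synthesis, 4 other degrading enzymes or 2 other receptors was called, with adjusted p of at least 0.267. The list was chosen with earlier results of these data known. These counts are therefore a description, and an excess over all genes was not tested.

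The 4 upstream genes encode a receptor, a G protein subunit and 2 phospholipase C isoforms of the cascade that feeds the diacylglycerol lipases. *Grm5*, the gene of mGluR5, had 172, 165, 157 and 145 CPM in MA12 rats 21, 31, 4N and 7N and 127, 67.5, 110 and 112 CPM in MA24 rats 9N, 14N, 15N and 16N. The groups did not overlap, rat 14N was far below the rest, and the log2FC was -0.62 (SE 0.14, adjusted p = 0.0187).

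*Gnaq*, the alpha subunit of Gq, had 43.8, 41.6, 39.9 and 31.5 CPM in MA12 and 31.7, 16.8, 23.3 and 31.4 CPM in MA24, in the same order of rats. The groups met at rats 7N and 9N, and the log2FC was -0.60 (SE 0.16, adjusted p = 0.0351). *Plcb1*, a phospholipase C beta, had 259 to 281 CPM in MA12 and 181 to 245 in MA24 without overlap (log2FC -0.40, SE 0.11, adjusted p = 0.0371). *Plcb4*, another isoform, had 27.0 to 33.8 and 19.8 to 24.4 CPM (log2FC -0.40, SE 0.11, adjusted p = 0.0466).

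The receptor partners *Gnai1*, an inhibitory G protein subunit, and *Arrb1*, a beta-arrestin that uncouples receptors, were the other calls. *Gnai1* had 87.4 to 107 CPM in MA12 and 66.8 to 87.7 in MA24 (log2FC -0.38, SE 0.11, adjusted p = 0.0450). *Arrb1* had 51.2 to 73.2 and 24.7 to 50.9 CPM (log2FC -0.59, SE 0.17, adjusted p = 0.0453). MA24 rat 14N was the lowest of all 12 rats for *Grm5*, *Gnaq*, *Gnai1* and *Arrb1*, whereas for *Cnr1* it was the second highest of its group. Without rat 14N, *Grm5* was still called, and the adjusted p was 0.0719 for *Gnaq*, 0.104 for *Plcb1*, 0.0584 for *Plcb4*, 0.118 for *Gnai1* and 0.0719 for *Arrb1*.

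**Figure D4:**
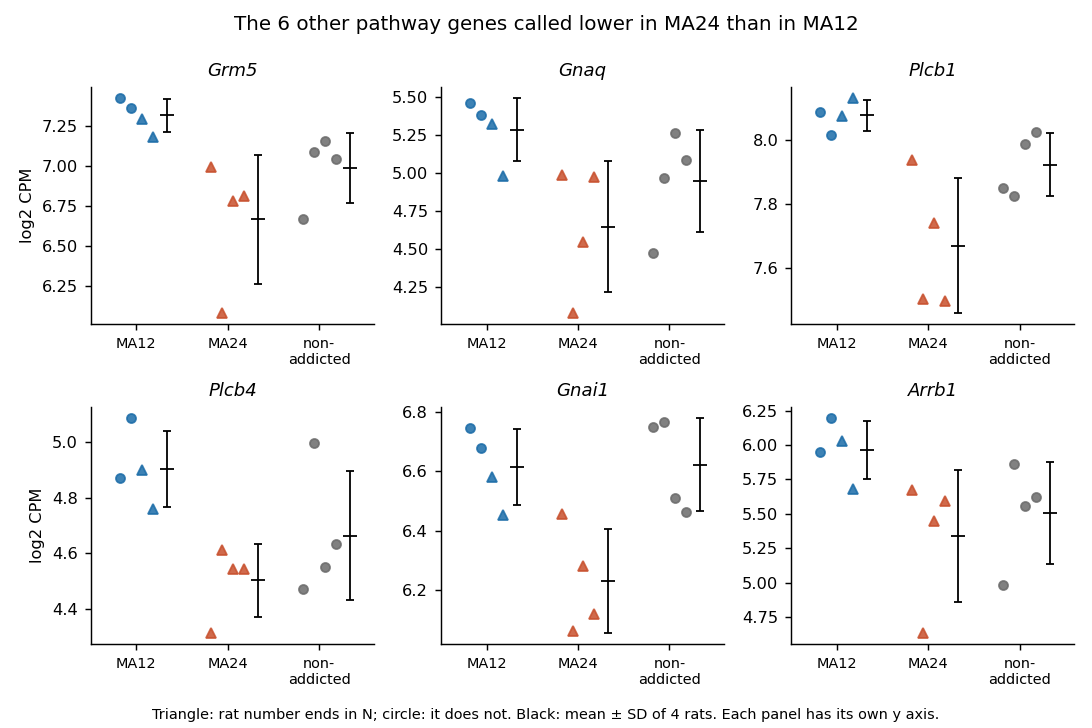
Levels of the 6 further pathway genes called lower in MA24 than in MA12, as log2 CPM per rat, by group on the x axis and with a y axis per gene. Black bars are mean ± SD of 4 rats, and triangles are rats whose number ends in N. For *Grm5*, *Plcb1*, *Plcb4* and *Arrb1*, every MA24 rat was below every MA12 rat. These are 4 of the 25 listed genes in the fit, close to the 15.5% of all genes tested without overlap in either direction.

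Under the 17 alternatives, the call was kept 15 times for *Grm5*, 8 times each for *Plcb1* and *Gnai1*, 7 times for *Gnaq*, 6 times for *Plcb4* and 4 times for *Arrb1*. None of the 6 kept it when only rats with N in their number were compared. There the log2FC was -0.53 for *Grm5* (adjusted p = 0.0936), -0.41 for *Plcb1* (0.113), -0.46 for *Gnaq* (0.231), -0.46 for *Arrb1* (0.212), -0.31 for *Plcb4* (0.369) and -0.27 for *Gnai1* (0.377), while *Cnr1* was called (whether they differ was not tested). This setting was applied to the 6 genes after their values had been seen. In the 2 comparisons with the non-addicted rats, 0 of 28 and 0 of 26 listed genes were called by the quasi-likelihood test, with 5 and 4 at an unadjusted p under 0.05, beside 12.3% and 17.5% of all genes tested. The likelihood ratio test and DESeq2 each called 1, *Gprasp1*, a sorting protein of receptors, in non-addicted vs. MA24 (log2FC 0.47, quasi-likelihood adjusted p = 0.0697), a gene named after its values were seen.

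Differences of log2 CPM between 2 genes in the same rat do not depend on library size, and are compared here between groups only, since transcript lengths were not used. *Cnr1* over *Mgll* was 2.46, 1.70, 2.07 and 2.20 in MA12 rats 21, 31, 4N and 7N, and 1.73, 2.21, 1.64 and 1.06 in MA24 rats 9N, 14N, 15N and 16N. Its group means were 2.11 ± 0.32 in MA12, 1.66 ± 0.47 in MA24 and 1.77 ± 0.32 in the non-addicted rats, and the groups overlapped. *Dagla* over *Mgll* averaged 0.67 ± 0.24, 0.53 ± 0.22 and 0.46 ± 0.14 in the same order of groups. *Dagla* over *Daglb* averaged 2.28 ± 0.17, 2.09 ± 0.17 and 2.06 ± 0.12. For all 7 ratios between the genes, every pair of groups overlapped.

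The 8 genes did not vary as a block across rats. Over the 12 libraries, which share the tissue and the group differences, the 28 pairs had Pearson's r from -0.34 to 0.58, with a median of 0.07. The highest was that of *Cnr1* with *Dagla* (r = 0.58, 0.28 after the group means were removed). After that removal, the highest were *Dagla* with *Abhd12* (0.72) and with *Mgll* (0.71).

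Among the 10764 other genes with a mean count of at least 50, those whose levels over the 12 libraries were most like *Cnr1* were *Enpp4* (r = 0.95), *Mpp6* (0.90), *Nlk* (0.88), *Pptc7* (0.87) and *Slc12a2* (0.86). None of the 4 of these that could be tested was called in MA24 vs. MA12, and *Enpp4* came nearest (log2FC -0.33, adjusted p = 0.0865). *Abhd12* was most like *Sdsl* (r = 0.92), *Fam110d* (0.90), *Zfp524* (0.89), *Gtpbp3* (0.89) and *Flot2* (0.88). *Fam110d* was called higher in MA24 than in MA12 (log2FC 0.58, adjusted p = 0.0290). *Dagla* was most like *Foxn3* (r = 0.93), *Smad7* (0.92), *Wwc2* (0.92), *Tanc1* (0.91) and *Tns1* (0.91). With so many genes compared over 12 libraries, such values describe these libraries only.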

How the data were processed

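Poly-A RNA of the striatum was sequenced in 12 rats. Per the labels and methods, the authors removed adapters with cutadapt 1.18, used STAR 2.7.0e for alignment to rn6, and deposited raw counts per gene without normalization. The methods name featureCounts, and the submitters' processing notes also list HTSeq 0.12.4. Settings for strand and multi-mapping reads are not given in the sources used here.

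In each comparison, only genes whose count averaged more than 4 in the 8 libraries entered, and the 15% least variable by log2 CPM were dropped, a reading of the study's filters. The counts were scaled by TMM and tested with edgeR 4.0.16 (R 4.3.3; glmQLFit, glmQLFTest) with Benjamini-Hochberg adjustment over all genes tested. A call is an adjusted p below 0.05, and a DEG also has an FC of at least 1.5. CPM uses TMM-scaled library sizes, and log2 CPM a prior count of 2. Alternatives included DESeq2 1.42.0, and the fit was tested on simulated data.

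All 8 genes were described, and pathway genes were named when called. The 5 most similar genes were named for *Cnr1* and for the 2 others with the smallest adjusted p. Genes and lists were chosen with earlier results of these data known. Rat numbers name animals and pair none. One listed cell type marker is not reported here.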

Additional observations from a re-analysis of the deposited data

How the results depend on the processing

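The difference of *Cnr1* in MA24 vs. MA12 kept its direction under all 17 alternatives. Of these, the fit of N-numbered rats and the covariate fit rest on the same contrast. When each rat was left out in turn, its log2FC lay between -0.61 and -0.42, and the number of the 8 genes called was 0 to 1. No alternative gave a call in the 2 comparisons with the non-addicted rats. Uncalled values near 0 changed sign, for which the cause was not tested. In MA24 vs. MA12, leaving out single rats gave a log2FC of -0.14 to 0.0826 for *Abhd6*, -0.0448 to 0.0663 for *Daglb* and -0.15 to 0.0913 for *Mgll*. In non-addicted vs. MA12, it gave -0.16 to 0.0523 for *Abhd6*, -0.0887 to 0.0375 for *Daglb*, -0.36 to 0.28 for *Faah* and -0.16 to 0.0468 for *Mgll*. In non-addicted vs. MA24, it gave -0.15 to 0.0590 for *Abhd6*, -0.0240 to 0.21 for *Cnr1*, -0.15 to 0.10 for *Mgll* and -0.20 to 0.0527 for *Napepld*. With only N-numbered rats, *Daglb* was -0.12 in MA24 vs. MA12, and -0.13 with the kind of number as a covariate. In non-addicted vs. MA12, rats without N gave 0.14 for *Mgll* and 0.18 for *Abhd6*, and the covariate gave 0.13 for *Mgll*, 0.16 for *Abhd6* and 0.11 for *Daglb*. In non-addicted vs. MA24, where MA12 rats alone estimate the covariate, it gave 0.0223 for *Dagla*, 0.25 for *Daglb*, 0.34 for *Mgll*, 0.42 for *Abhd6* and 0.0647 for *Napepld*. The number of all genes called ranged from 49 to 917 in MA24 vs. MA12, from 4 to 167 in non-addicted vs. MA12 and from 0 to 271 in non-addicted vs. MA24, against 555, 29 and 59. Of the 102 values of the 6 pathway genes under alternatives, 54 missed the threshold and none changed sign. *Faah* had only 2 to 13 counts, and all values rest on 4 rats per group. Whether depth or group size decided which genes were called was not tested. No paired analysis was possible because the rat numbers name animals and no number recurs across groups.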

Other observations

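Some cell type markers were called in the comparisons with the non-addicted rats, where none of the 8 endocannabinoid genes was. Of 36 markers tested, 2 were called in non-addicted vs. MA12, beside 0.27% of all genes tested. In non-addicted vs. MA24, 4 were called, beside 0.549% of all genes tested. The summed vascular markers were 266 to 379 CPM in the non-addicted rats, 359 to 465 in MA12 and 431 to 481 in MA24. *Kdr*, the main receptor for vascular endothelial growth factor, was called lower in both comparisons with the non-addicted rats. The summed markers of ependyma and choroid plexus were 24.5 to 59.9 CPM in the non-addicted rats, 13.6 to 36.9 in MA12 and 16.8 to 22.6 in MA24. *Foxj1*, a ciliogenesis factor of ependymal cells, was called higher in the non-addicted rats than in MA24, and *Cldn5* of endothelial junctions and *Mbp* of myelin were called lower. *Pdyn* was called lower in the non-addicted rats than in MA12.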
